A study of Mus musculus with 6 samples.

Results

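The genes described here are 32 genes of endothelium and coronary vessels, measured in whole mouse hearts at embryonic day 16.5. A gene was included if it was on a fixed list of 32 symbols and a probe set of the array was annotated to that symbol alone. All 32 had such a probe set, among 18193 genes with at least 1, and all 32 passed the filter on dim probe sets that left 11113 genes for testing. Hearts labelled FOG-2R3K5A (3 samples, called mutant here) were compared with Wild-Type hearts (3 samples) of the same crosses, on a background labelled mixed C57/B6, 129 S6. Zfpm2 encodes FOG-2, which works with GATA factors in the nucleus, and R3K5A is known as an allele whose protein no longer binds NuRD, a chromatin remodelling complex. The labels call the samples biological replicates. The parents are described as double heterozygous, with no second locus named. Neither the zygosity of the mutants nor the number of hearts in a replicate is given. The p-values set the genotype difference against the spread between samples within a genotype, whether a sample is 1 heart or a pool.

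Endothelial cells line every vessel and, as endocardium, the chambers of the heart. Coronary vessels grow in the heart wall during the second part of gestation, with contributions from the sinus venosus and from the endocardium, and mice that lack FOG-2 altogether are known to fail to form them. Arterial identity depends on Notch signalling through Dll4 and on SoxF factors, and arterial cells carry the ephrin Efnb2. Vwf, Plvap and Emcn mark veins, fenestrated vessels or endocardium more than arteries, while Cdh5, Pecam1 and Kdr are found across endothelium. The comparison asks whether vessel transcripts as a whole, or 1 of these classes, differed between the genotypes. The list was divided into 3 venous or endocardial genes (Vwf, Plvap, Emcn), 3 arterial genes (Dll4, Sox17, Efnb2), 20 pan-endothelial genes and 6 other vessel genes (Ednrb, Nfatc1, Ephb4, Flt4, Fabp4, Gpihbp1).

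Promoter windows are shown for a venous or endocardial gene and for both arterial genes for which one was matched, since the comparison turns on these classes and FOG-2 acts through GATA factors. Each is the 250 bases before the gene start on GRCm38.p6, from RefSeq, written 5′ to 3′ on the gene's strand, with matches to an ETS motif in capitals. ETS factors such as the product of Erg are main activators of endothelial genes.
Emcn, chr3:137340828-137341077, plus strand: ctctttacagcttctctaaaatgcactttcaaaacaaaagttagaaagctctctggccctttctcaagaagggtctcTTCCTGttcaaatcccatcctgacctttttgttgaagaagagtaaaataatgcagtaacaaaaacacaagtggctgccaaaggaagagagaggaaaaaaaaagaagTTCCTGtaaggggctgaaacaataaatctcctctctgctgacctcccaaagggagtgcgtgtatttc
Dll4, chr2:119325534-119325783, plus strand: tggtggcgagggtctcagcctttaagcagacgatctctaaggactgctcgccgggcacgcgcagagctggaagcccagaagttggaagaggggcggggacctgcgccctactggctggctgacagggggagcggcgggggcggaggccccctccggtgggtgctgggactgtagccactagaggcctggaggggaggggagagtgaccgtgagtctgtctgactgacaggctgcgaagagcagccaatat
Efnb2, chr8:8661243-8661492, minus strand: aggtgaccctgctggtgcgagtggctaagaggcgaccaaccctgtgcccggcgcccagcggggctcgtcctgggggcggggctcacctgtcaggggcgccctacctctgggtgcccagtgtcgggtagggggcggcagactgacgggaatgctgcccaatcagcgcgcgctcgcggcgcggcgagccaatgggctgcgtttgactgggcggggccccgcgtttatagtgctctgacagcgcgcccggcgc

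Windows were matched for 18 of the 32 genes, 22 windows in all because Egfl7 and Erg have 3 each. The ETS motif was searched as CCGGAA or CAGGAA and the GATA motif as AGATAA or TGATAA, on both strands. No letters of 1 motif overlap the other in these windows. The ETS letters were found in 11 of 22 member windows, in 10 genes, against 39.2% of windows of all tested genes. Emcn, Tek, Cd34, Rasip1 and the 5′-most Egfl7 window held 2 matches each. The GATA letters were found in 2 of 22 member windows, 1 of Egfl7 and 1 of Erg, against 9.19% of windows of tested genes. These are descriptions of letters in short windows.

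The arrays were alike in scale, with median intensities of 77.3 to 84.1. Zfpm2, which the allele alters in its protein, read 10.07 to 10.14 log2 units in wild type and 10.52 to 10.59 in mutants. Wild-type replicate 1 lay nearest the mutants on the first principal component of the tested genes, which held 44.5% of the variance. Scgb3a2, a secretoglobin gene of lung airways, was at 4.81 to 5.40 on 4 arrays but at 9.03 on mutant replicate 1 and 11.36 on mutant replicate 3. Cardiomyocyte markers were present on every array, with 9 of 9 listed genes above the filter level. For the endothelial and coronary vessel genes described here, results that rest on wild-type replicate 1 or on mutant replicates 1 and 3 are given with and without them. Results for genes of the other lists, the called gene Cytl1 and the called epicardial genes among them, are given from all arrays together only. Whether those calls hold without these arrays is not shown.

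Vwf, which encodes the von Willebrand factor that endothelial cells store and that captures platelets, rose in mutant hearts, 1.90-fold, and was the only 1 of the 32 genes to pass the test. Limma, with Benjamini-Hochberg adjustment over all 11113 genes, called 1 of 32 members at an adjusted p under 0.05, where 1.76% of all genes tested were called, 1.39% higher and 0.369% lower. At an unadjusted p under 0.05 there were 7 members, 6 higher and 1 lower, against 14.7% of all genes tested, 8.40% higher and 6.33% lower. The 2 genotypes did not overlap for 8 members, 7 higher and 1 lower. The background for this was 21.2% of all genes tested, so 8 of 32 is close to it, while the shares by direction were 11.5% of all genes higher and 9.76% lower. The median difference of the members, mutant minus wild type, was 0.07 log2 units, beside -0.01 for all genes tested, and 21 of 32 members were positive against 47.2% of all genes. Differences ran from -0.23 for Sox17 to 0.92 for Vwf. In whole hearts, a change in the number of cells of a type and a change in RNA per cell cannot be told apart, for rises as for falls. The count of called members was 4 without wild-type replicate 1 (Vwf, Plvap, Ednrb and Fabp4) and 0 without wild-type replicate 3, without mutant replicate 3 or without mutant replicates 1 and 3 together.

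**Figure D1:**
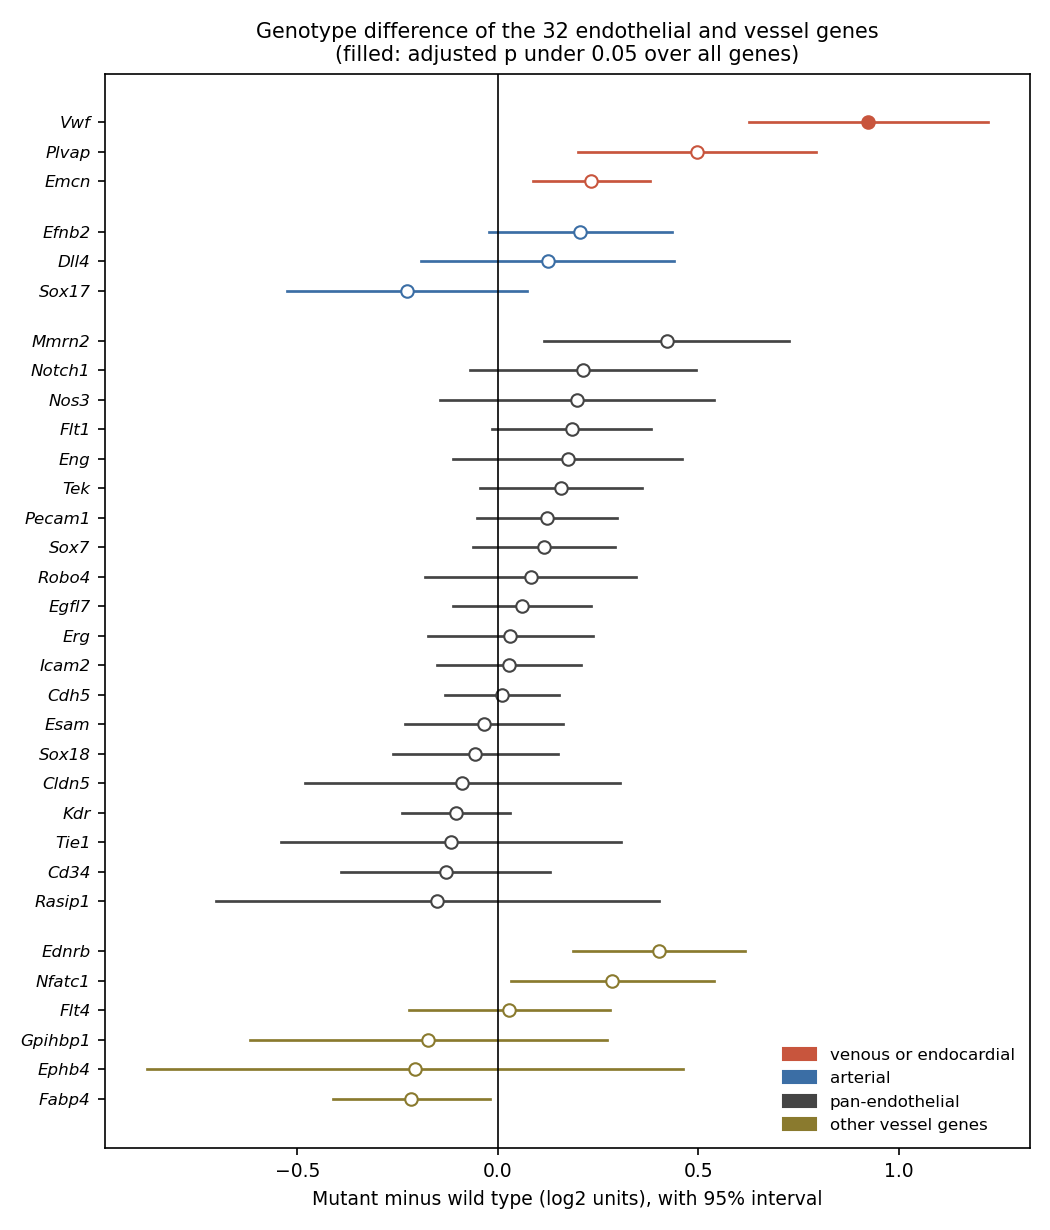
Mutant minus wild-type difference in log2 units (x axis) for the main probe set of each of the 32 genes (y axis), grouped by class. Points are the difference of the means of 3 and 3 arrays and lines limma's 95% interval. The filled point marks the called gene, Vwf, at 0.92, and the intervals of Plvap, Emcn, Mmrn2, Ednrb, Nfatc1 and Fabp4 also leave out 0.

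The 3 venous or endocardial genes all had higher values in every mutant than in any wild-type heart, as did 11.5% of all genes tested. This class was named with these data known. It leaves out Ephb4, a venous receptor gene, at -0.21, and the endocardial genes Ednrb and Nfatc1, at 0.40 and 0.29. Vwf read 8.52, 8.55 and 8.59 log2 units in wild-type replicates 1, 2 and 3, and 9.75, 9.19 and 9.49 in mutant replicates 1, 2 and 3. The wild-type values lay within 0.07 of each other and the mutant values were spread over 0.56, with mutant replicate 2 the lowest of them. The mean was 8.55 ± 0.04 (SD, n = 3) in wild type and 9.48 ± 0.28 (SD, n = 3) in mutants, a difference of 0.92 (SE 0.13, limma adjusted p = 0.0123). Plvap encodes the protein of the diaphragms that span fenestrae and caveolae. It read 10.10, 9.54 and 9.78 in wild type and 10.29, 10.42 and 10.19 in mutants, where the highest wild-type value, in replicate 1, lay just under the lowest mutant. Its difference was 0.50 (SE 0.13, 95% interval 0.20 to 0.79) and did not pass (limma adjusted p = 0.115). Emcn encodes endomucin, a sialomucin of veins, capillaries and endocardium. It read 10.29, 10.19 and 10.20 in wild type and 10.47, 10.45 and 10.46 in mutants. Its spread within genotype was at the 3.2nd percentile of all tested genes, and its difference of 0.23 (SE 0.06, 95% interval 0.09 to 0.38) did not pass (limma adjusted p = 0.130). Plvap passed without wild-type replicate 1 and with array quality weights, while Emcn passed in none of the alternatives.

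The call of Vwf was lost without wild-type replicate 3 (adjusted p = 0.0529), without mutant replicate 3 (0.0673) and with Xist, which differs between the sexes, as a covariate (0.0695), all by limma. Xist read 11.58 to 12.12 in wild type and 10.82 to 11.90 in mutants. It was far above the filter level on every array, so this covariate did not divide the arrays by sex. With it the Vwf difference was 0.95. The call of Vwf was also lost without mutant replicates 1 and 3, where the difference was 0.64. The same held when wild-type replicate 1 was left out as well, with a difference of 0.62. In the alternatives with more than 1 mutant array its limma adjusted p ran from 0.00735 to 0.0695. Across all alternatives the Vwf difference ran from 0.62 to 1.07.

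**Figure D2:**
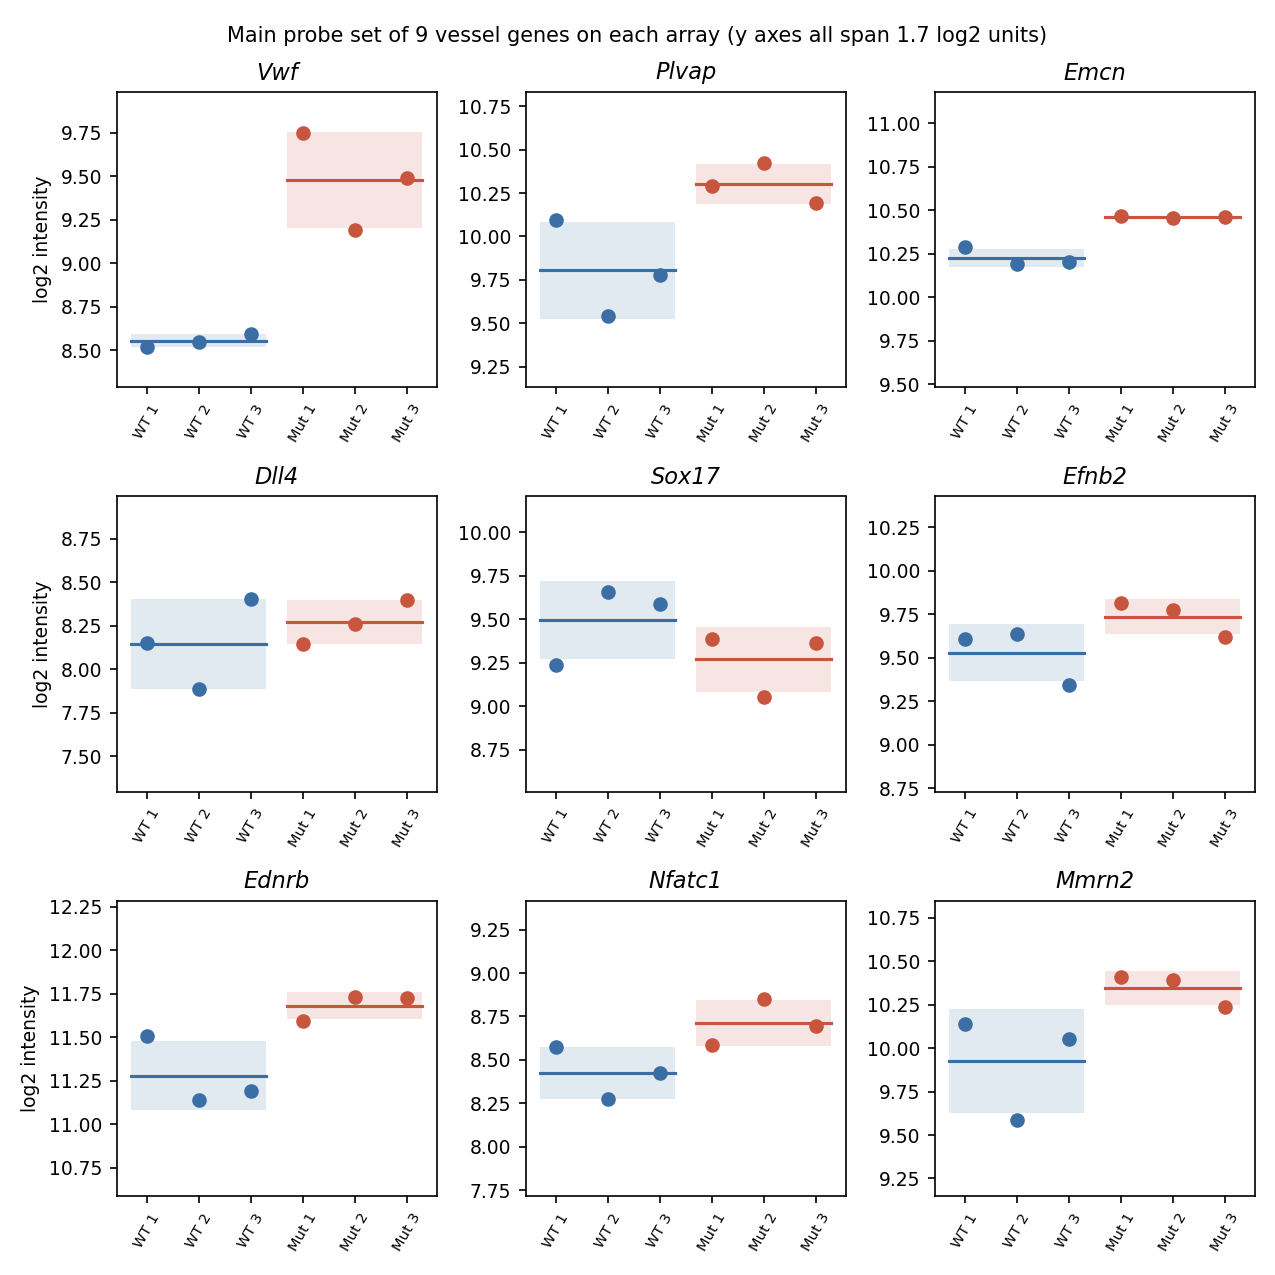
Log2 intensity (y axis) on each of the 3 wild-type (WT) and 3 mutant (Mut) arrays (x axis) for 9 genes. Points are arrays, lines are group means and shaded bands are 1 SD to each side. The top row shows Vwf, Plvap and Emcn, whose genotypes do not overlap, and the middle row Dll4, Sox17 and Efnb2, whose genotypes do on the brightest probe set, shown here.

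Vwf is also made by megakaryocytes, and the lung is rich in vessels that express it, so markers of platelets and lung were read beside it. Of 10 platelet and megakaryocyte genes, 8 were on the array and 5 were above the filter level. None of the 5 was called by limma, with 0 at an unadjusted p under 0.05, and their differences ran from -0.26 to 0.17. The summed intensity of the 8 on the array was 1329 to 1488 in wild type and 1432 to 1521 in mutants, and Gp9, Gp6 and Treml1 were under the filter level. Pf4, a chemokine of platelet granules, read 9.48, 9.41 and 9.38 in wild type and 9.68, 9.48 and 9.62 in mutants, a difference of 0.17 (SE 0.08), and the platelet receptor gene Gp1bb had -0.26. Of 13 lung genes 0 were called by limma, 1 (Scgb3a2) had an unadjusted p under 0.05, and 8 were under the filter level, Nkx2-1, Sftpa1 and Scgb1a1 among them. The summed intensity of the 13 was 884 to 1185 in wild type and 878 to 4407 in mutants. The list holds Tbx5, also a gene of the heart, at 8.76 to 9.09 in wild type and 8.54 to 9.20 in mutants. The sums are therefore not of lung transcripts alone. Scgb3a2 was high on mutant replicates 1 and 3, and Sftpc, the surfactant protein C gene, read 9.43 on mutant replicate 3 and 5.80 to 6.53 on the other arrays. These are also the mutant arrays with the higher Vwf values, although Vwf was highest on mutant replicate 1 and the lung genes on mutant replicate 3. On mutant replicate 2 Scgb3a2 read 4.87 and Sftpc 5.80, within or below the wild-type range, and Vwf read 9.19, above all wild-type values. That single array against 3 wild-type arrays gave a difference of 0.64 for Vwf, 0.61 for Plvap and 0.23 for Emcn. Plvap was highest on mutant replicate 2. The part of lung RNA in the size of the Vwf difference was not tested.

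**Figure D3:**
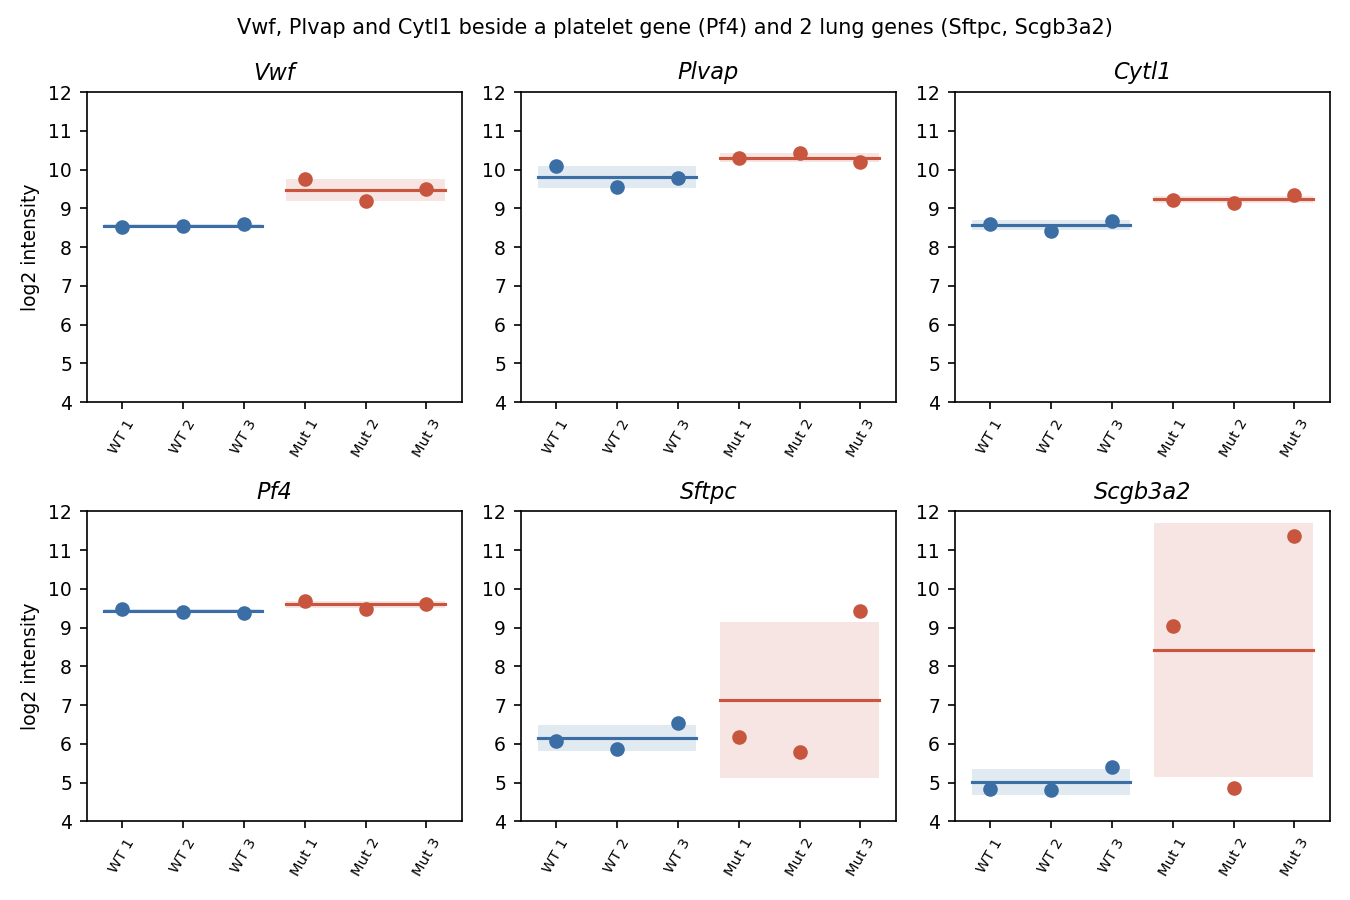
Log2 intensity (y axis, the same range in each panel) on each array (x axis) for Vwf, Plvap and the endocardial and valve list gene Cytl1, beside the platelet gene Pf4 and the lung genes Sftpc and Scgb3a2. Points are arrays, lines group means and bands 1 SD. Scgb3a2 is high on mutant replicates 1 and 3 only, at 9.03 and 11.36, while Cytl1 is at 9.14 to 9.33 on all mutants.

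On their brightest probe sets the 3 arterial genes overlapped between genotypes and none was called, by limma, with 0 at an unadjusted p under 0.05. Dll4, the Notch ligand of arterial and tip cells, read 8.15, 7.89 and 8.40 in wild type and 8.15, 8.26 and 8.40 in mutants. Its difference was 0.12 (95% interval -0.19 to 0.44). Sox17, a SoxF factor needed for arterial fate, read 9.24, 9.66 and 9.59 in wild type and 9.39, 9.05 and 9.36 in mutants. Its difference was -0.23 (95% interval -0.53 to 0.07), the most negative of the 32. Efnb2, which encodes the ephrin-B2 ligand, read 9.61, 9.64 and 9.34 in wild type and 9.81, 9.77 and 9.62 in mutants. Only wild-type replicate 2 lay above a mutant value, and the difference was 0.21 (95% interval -0.02 to 0.43). On another Efnb2 probe set, almost as bright, the genotypes did not overlap. Its difference was 0.26 (limma unadjusted p = 0.00665, adjusted p = 0.289 over every probe set). For the brightest probe sets, the intervals leave out a rise of 0.5 log2 units for all 3, and a fall of that size for Dll4 and Efnb2 but not for Sox17. The dimmer Dll4 probe set was less precise, at 0.19 (SE 0.17), and these limits do not apply to it. The median of the 3 was 0.12, and it was -0.0055 without wild-type replicate 2, the array with the lowest Dll4 value, and 0.06 without mutant replicate 3.

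The venous or endocardial genes and the arterial genes were also set against the pan-endothelial genes of the same array. The mean deviation of Vwf, Plvap and Emcn from their 6-array means, minus that of the 20 pan-endothelial genes, was -0.14, -0.41 and -0.19 in wild-type replicates 1, 2 and 3, and 0.28, 0.17 and 0.29 in mutants. For the arterial genes the same measure was -0.05, -0.05 and 0.13 in wild type and -0.04, -0.09 and 0.10 in mutants. The difference between genotypes in this measure was 0.50 for the venous or endocardial genes and -0.02 for the arterial genes. The classes were named with these data known, and Vwf contributes most to the first value, so this is a description, and the difference between the classes was not tested. It did not extend to the lists of other venous and other arterial genes read below. There the median difference, mutant minus wild type, was -0.08 for venous genes and 0.10 for arterial genes. In the endocardium and valve list, also read below, the median was 0.21, higher than in the arterial list.

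Of the 20 pan-endothelial genes, none was called by limma, 1 (Mmrn2) had an unadjusted p under 0.05, 13 were positive, and the median difference was 0.05. The median was 0.09 without wild-type replicate 2. Kdr, the principal VEGF receptor, read 11.17, 11.23 and 11.18 in wild type and 11.14, 11.12 and 11.01 in mutants. All mutant values lay below all wild-type values, and the difference was -0.10 (95% interval -0.24 to 0.03, limma adjusted p = 0.448). Flt1, the decoy VEGF receptor, had 0.18 (95% interval -0.01 to 0.38). The angiopoietin receptor gene Tek had 0.16, and Tie1, which encodes its partner, -0.12 with a wide interval (-0.54 to 0.31). Eng, a co-receptor for BMP and TGF-beta ligands, had 0.17 (95% interval -0.11 to 0.46).

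Genes of endothelial junctions and adhesion did not pass either. Cdh5, which encodes VE-cadherin, read 11.33, 11.23 and 11.17 in wild type and 11.29, 11.28 and 11.19 in mutants. The difference was 0.01 (95% interval -0.13 to 0.15), so this probe set leaves out a change of more than 0.15 log2 units in either direction at that level. Pecam1, the platelet and endothelial adhesion molecule CD31, read 9.49, 9.61 and 9.46 in wild type and 9.67, 9.62 and 9.64 in mutants. The mutants all lay above the wild type, the closest pair by little, and the difference was 0.12 (95% interval -0.05 to 0.30, limma adjusted p = 0.487). Icam2 had 0.03, Esam -0.03 and the tight junction claudin Cldn5 -0.09 (95% interval -0.48 to 0.30).

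Transcription factors and signalling genes of the same class also did not pass. Sox7 and Sox18, SoxF factors like Sox17, had 0.12 and -0.06, and Erg, the ETS factor of endothelium, 0.03 (95% interval -0.17 to 0.24). Notch1, the receptor for Dll4 in endothelium, had 0.21 (95% interval -0.07 to 0.49). Nos3, the endothelial nitric oxide synthase, had 0.20 (95% interval -0.14 to 0.54). Cd34, a sialomucin gene, had -0.13 (95% interval -0.39 to 0.13), and this was -0.0086 without wild-type replicate 2. Robo4 had 0.08, the secreted factor gene Egfl7 0.06, and Rasip1, needed for vessel lumens, -0.15 (95% interval -0.70 to 0.40). Mmrn2, a matrix protein gene of endothelium, was the pan-endothelial gene with the largest difference. It read 10.14, 9.58 and 10.05 in wild type and 10.41, 10.39 and 10.24 in mutants, with no overlap, a difference of 0.42 (SE 0.14, 1.34-fold) that did not pass (limma adjusted p = 0.186). Without wild-type replicate 2, its lowest array, the Mmrn2 difference was 0.25.

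Among the 6 other vessel genes none was called by limma, and 3 had an unadjusted p under 0.05. Ednrb, an endothelin receptor gene that marks endocardium and growing coronary endothelium, came nearest. It read 11.51, 11.14 and 11.19 in wild type and 11.59, 11.73 and 11.73 in mutants. Wild-type replicate 1 lay close under the lowest mutant, and the difference was 0.40 (SE 0.10, 1.32-fold, limma adjusted p = 0.0798). It passed without wild-type replicate 1, with array quality weights and at a threshold of 0.1. Nfatc1, a transcription factor of endocardium and valve formation, read 8.57, 8.28 and 8.43 in wild type and 8.59, 8.85 and 8.69 in mutants. The genotypes were separate only by a narrow margin, and the difference of 0.29 (95% interval 0.03 to 0.54) did not pass (limma adjusted p = 0.272).

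Fabp4, a fatty acid binding protein of capillaries and fat cells, was the only gene of the 7 with an unadjusted p under 0.05 to be lower in mutants. It read 12.37, 12.67 and 12.69 in wild type and 12.45, 12.26 and 12.37 in mutants. Wild-type replicate 1 lay among the mutants, and the difference was -0.22 (95% interval -0.41 to -0.02, limma adjusted p = 0.290), called only without that array (-0.32, adjusted p = 0.0296). Gpihbp1, which carries lipoprotein lipase across capillary endothelium, had -0.17 (95% interval -0.62 to 0.27). Ephb4, the venous receptor of Efnb2, had -0.21 (95% interval -0.87 to 0.46), but the value turned to 0.21 without wild-type replicate 2, which read 8.62 against 7.27 to 7.60 on the other arrays. Flt4, a VEGF-C receptor gene of lymphatic and sprouting endothelium, had 0.03 (95% interval -0.22 to 0.28).

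The 32 genes had 61 probe sets of their own, 57 of them above the filter level, and 17 genes, Vwf, Plvap, Emcn, Pecam1 and Kdr among them, were read by 1 probe set only. For 13 genes more than 1 was above the filter level. Of their 25 other probe sets 7 had the opposite sign to the brightest, and in 8 of the 13 genes every such probe set had the same sign. Ednrb was higher on all 3, by 0.40, 0.31 and 0.58, and on the last of these wild type read 8.85 to 9.33 and mutants 9.53 to 9.75, while on the probe set with 0.31 the genotypes overlapped. Mmrn2 was higher on all 4, by 0.24 to 0.42. Efnb2 was higher on the 3 above the filter level, by 0.21, 0.26 and 0.22, and on the second of these the mutants, at 9.66 to 9.73, all lay above the wild type, at 9.37 to 9.53. Eng had a dimmer probe set with 0.50, where wild type read 8.62 to 8.88 and mutants 9.17 to 9.31. Nfatc1 had 0.29, 0.28 and 0.41 on 3 probe sets and -0.10 on another, and Egfl7 had 0.06 on the brightest and -0.07 to -0.16 on its other 3. The second probe set of Cdh5 gave -0.58, from a value of 8.13 on wild-type replicate 2 against 6.01 to 6.29 on the other arrays. In a fit of every probe set, limma called 0.118% of 45037 and 0 of these 61, with Vwf at an adjusted p of 0.0745.

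**Figure D4:**
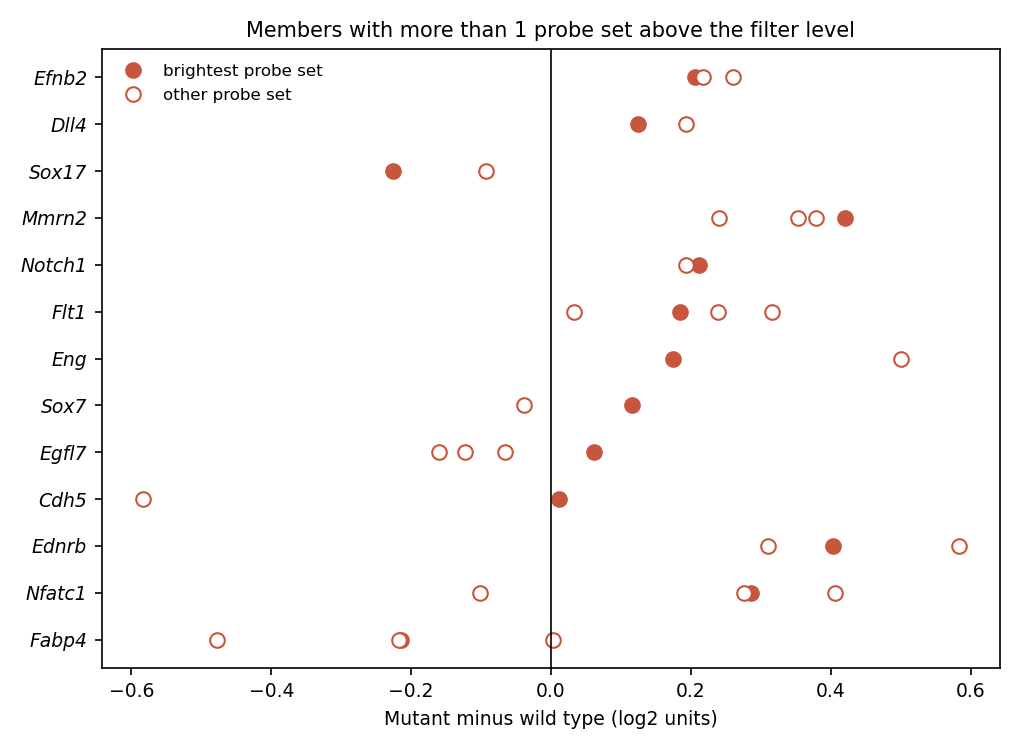
Mutant minus wild-type difference in log2 units (x axis) of every probe set above the filter level, for the 13 genes (y axis) with more than 1. Filled points are the brightest probe set and open points the others. All points of Ednrb, Mmrn2 and Efnb2 lie above 0 and both points of Sox17 below it, while Cdh5, Egfl7, Sox7, Nfatc1 and Fabp4, with 1 point at 0.0027, have points on both sides.

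The arrays differed within genotype more for some members than for others. The median SD of the members was 0.16 in wild type and 0.11 in mutants, beside 0.13 and 0.09 for all genes tested. Ephb4, Rasip1, Gpihbp1 and Tie1 were among the most variable, above the 95th percentile of all tested genes by their spread within genotype. Ephb4, Rasip1 and Tie1 were highest on wild-type replicate 2, where Rasip1 read 9.04 against 7.99 on wild-type replicate 3 and Tie1 9.54 against 8.68. Emcn, Kdr and Pecam1 were among the steadiest. Mutant replicate 1 was the highest of the 6 arrays for 13 of 32 members, where it was highest for 16.7% of all tested genes, and wild-type replicate 3 was the lowest for 11, against 12.8%. The median deviation of the members by array was -0.02, 0.01 and -0.11 in wild type and 0.10, 0.05 and -0.03 in mutants, so the whole list overlapped between genotypes.

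**Figure D5:**
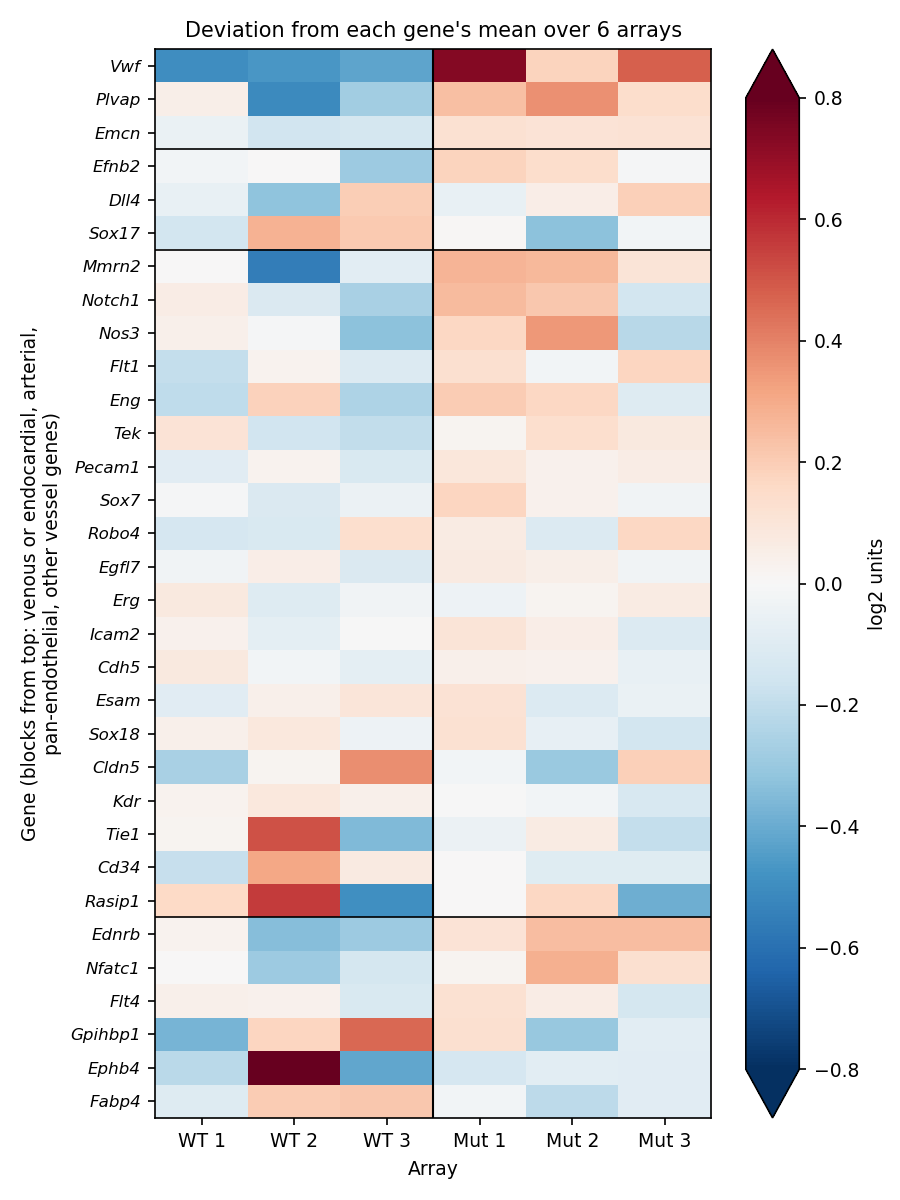
Deviation of each of the 32 genes (rows, in 4 class blocks) from its mean over the 6 arrays (columns), in log2 units by colour, with red above and blue below that mean. The top block, Vwf, Plvap and Emcn, changes from blue to red between genotypes apart from Plvap on wild-type replicate 1, and Ephb4, Tie1 and Rasip1 are red on wild-type replicate 2.

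Other genes of endothelium and its signals were read from lists that do not include the 32. For comparison, 1.76% of all genes tested were called, 14.7% had an unadjusted p under 0.05 by limma and 47.2% were positive. In an endocardium and valve list of 15 genes, 12 were tested, 10 were positive and the median difference was 0.21. By limma 4 of the 12 had an unadjusted p under 0.05, all of them higher. Cytl1, a secreted cytokine-like protein, was called, at 8.60, 8.43 and 8.68 in wild type and 9.21, 9.14 and 9.33 in mutants. It rose by 0.66 (SE 0.10, 1.58-fold, limma adjusted p = 0.0159). Tgfb2, a growth factor of cushion formation, had 0.49 (limma adjusted p = 0.0723) and the endocardial receptor gene Npr3 0.21 (95% interval -0.01 to 0.44). Of 26 other endothelial genes, not all of them pan-endothelial, 0 were called by limma, 6 had an unadjusted p under 0.05, 14 were positive and the median was 0.02. Tmem100, a gene of arterial endothelium and endocardium under BMP control, had 0.53 (limma adjusted p = 0.0949), and the transcription factor gene Lyl1 0.42.

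Of 12 VEGF, angiopoietin and semaphorin genes tested 0 were called by limma, with 3 at an unadjusted p under 0.05 and a median of -0.05. Sema3c had 0.43 (limma adjusted p = 0.0723), the adaptor gene Shb 0.32, and the main ligand gene Vegfa -0.09. Of 15 Notch pathway genes 0 were called by limma, while 12 were negative, 4 of them at an unadjusted p under 0.05, and the median was -0.13. Among all genes tested 47.2% were positive, and 6.33% were lower at that unadjusted p. Hey2, a Notch target also abundant in compact myocardium, had -0.25 and Notch2 -0.34. Of 10 other arterial genes 0 were called by limma, with 1 at an unadjusted p under 0.05 (the chemokine gene Cxcl12, 0.29), and Gja4, an arterial connexin, had 0.23. Of these 10 genes 6 were positive, and the median was 0.10. Of 7 other venous genes 0 were called by limma and 2 had an unadjusted p under 0.05, both lower, Sele at -0.33 and Nrp2 at -0.31. Of these 7 genes 3 were positive and 4 negative, and the median was -0.08, unlike the rise of Vwf, Plvap and Emcn. Nr2f2, the transcription factor of venous identity, had -0.25 (95% interval -0.51 to 0.01). Of 7 capillary genes 0 were called by limma and 1 had an unadjusted p under 0.05, with Fabp5 at 0.12 and Meox2 at -0.45.

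Markers of neighbouring cell types were read the same way. Of 6 lymphatic genes 0 were called by limma, with 1 at an unadjusted p under 0.05. This was Pdpn, at 0.61 (limma adjusted p = 0.0605), which mesothelium also expresses, while Reln had 0.25, Prox1 -0.09 and Lyve1 0.11. Of 11 mural genes 0 were called by limma, with 3 at an unadjusted p under 0.05 and a median of 0.03, Cnn1 at 0.42, Abcc9 at 0.23 and Pdgfrb at 0.04. The summed intensity of the 12 listed mural genes was 22497 to 25164 in wild type and 23862 to 25224 in mutants. Acta2 was the brightest of them, at 13.03 to 13.15 log2 units, and Acta2 and Des are not particular to mural cells. Of 6 progenitor and leukocyte genes 0 were called and 0 had an unadjusted p under 0.05 by limma, with Kit at 0.21 and Runx1 at -0.31. Of 3 erythroid genes the same held, with Alas2 at 0.27 and Slc4a1 at 0.30. Of 2 fat genes 0 were called by limma, and Ebf2, at -0.81, had an unadjusted p under 0.05, while Cidea had -0.28. Adipoq, which marks fat cells, the other main source of Fabp4, was under the filter level, at 3.46 to 4.42. In the epicardial list 5 of 10 genes were called higher by limma (Krt18, Krt8, Krt19, Msln and Upk3b), against 1.39% of all genes tested. The summed intensity of the 10 epicardial genes was 6326 to 6779 in wild type and 7857 to 8377 in mutants. The part of the epicardial genes in the vessel results was not tested.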

How the data were processed

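The deposited table holds linear probe set intensity values, with array medians within 0.121 log2 units of each other. Whether the authors had scaled them between arrays cannot be read from this. The software and normalization were not given in the sources used here. Array annotation gave 1 symbol for 34945 of 45101 probe sets, and 64 were controls. Values were floored at 1 and log2-transformed, and no normalization was added. Each of 18193 genes was represented by its brightest probe set over the 6 arrays, and 11113 with a mean above 6.30 log2 units, the median over non-control probe sets, were tested with limma 3.58.1 in R 4.3.3 (intensity trend, two-sided). Benjamini-Hochberg adjustment ran over all of these. The number of arrays limits the precision. All 32 members were accounted for. Values in every array are given for those with an unadjusted p under 0.05, the arterial genes, Pecam1, Cdh5 and Kdr. In each other list except the cardiomyocyte list, the called genes or the 2 with the smallest p are named. Further genes (such as Pdgfrb, Prox1, Lyve1 and Vegfa) were chosen after their values were seen. The members and lists were chosen with earlier results of these data known. Same-numbered replicates had correlations of deviations of -0.058, 0.131 and 0.411, so they were not treated as pairs. Simulated arrays were used to test the fit.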

Additional observations from a re-analysis of the deposited data

How the results depend on the processing

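Over all genes 196 were called. The count was 81 with no filter, 119 without the intensity trend, 429 with array quality weights, 43 with the Xist covariate, 369 at a threshold of 0.1, 5 without mutant replicates 1 and 3 and 10 without these and wild-type replicate 1 (a setting added after seeing the data), and 37 to 451 without 1 array. With 1 array in a genotype, that array is assumed to vary like the others. The count of called members, 1 in the main analysis, was 3 with array quality weights, 0 with the Xist covariate, 2 at a threshold of 0.1, 0 without mutant replicates 1 and 3, 0 also without wild-type replicate 1, and 0 to 4 without 1 array. The replicate number as a block gave 234 genes and 1 member, Vwf, and changed no member's call. The same-numbered arrays share only a number, and wild-type replicate 1 correlated best with mutant replicate 2. The arterial median was 0.0088 with array quality weights and -0.0055 to 0.17 without 1 array. The medians of all members, of the venous or endocardial genes and of the pan-endothelial genes moved by less than 1 SD of the arrays in all 19 alternatives, the last from 0.05 to 0.09 without wild-type replicate 2.

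Of 32 members 18 kept their sign in all 19 alternatives, Vwf, Plvap, Emcn, Ednrb, Nfatc1, Mmrn2, Kdr and Pecam1 among them. The others turned in at least 1, and none of these was called in any. With the mean over probe sets Cdh5 was -0.29 and Egfl7 -0.072. With array quality weights Tie1 was 0.034, Sox18 0.0085 and Rasip1 0.097. Median centring put Esam at 0.0078, and the Xist covariate put Esam at 0.024, Sox18 at 0.0061 and Erg at -0.019. Without mutant replicates 1 and 3 Tie1 was 0.0053, Robo4 -0.066 and Rasip1 0.092, and also without wild-type replicate 1 Robo4 was -0.11 and Rasip1 0.13. Without 1 array the ranges were -0.025 to 0.054 for Cdh5, -0.32 to 0.11 for Tie1, -0.10 to 0.013 for Esam, -0.24 to 0.076 for Cldn5, -0.13 to 0.0024 for Sox18, -0.011 to 0.080 for Erg, -0.015 to 0.09 for Icam2, -0.43 to 0.092 for Rasip1, -0.0055 to 0.25 for Dll4, -0.026 to 0.11 for Flt4, -0.40 to 0.013 for Gpihbp1 and -0.47 to 0.21 for Ephb4. Ranges that moved by over 1.5 times without a turn were 0.25 to 0.53 for Mmrn2, 0.073 to 0.36 for Nos3, -0.255 to -0.0086 for Cd34, -0.13 to -0.065 for Kdr, 0.099 to 0.25 for Tek, 0.096 to 0.31 for Eng, 0.059 to 0.16 for Sox7, 0.14 to 0.34 for Notch1, -0.36 to -0.12 for Sox17 and 0.11 to 0.26 for Efnb2. The cause of these changes was not tested.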

Other observations

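Several vessel genes stood apart on wild-type replicate 2, chosen after their values were seen. Besides Ephb4, Tie1 and Rasip1, the sphingosine receptor gene S1pr1 read 10.75 there against 9.98 to 10.08 on the other 5 arrays, Vegfb 10.92 against 9.50 to 9.97, the leukocyte adhesion gene Icam1 8.80 against 7.91 to 8.21, and Cd300lg 6.78 against 4.94 to 5.34. Procr, the endothelial protein C receptor gene, read 8.56, 8.07 and 6.87 in wild type and 8.76, 8.90 and 8.67 in mutants, a difference of 0.94 with no overlap that did not pass (limma adjusted p = 0.249). Among genes under the filter level, Tll1, a metalloprotease of endocardium and valve, was at 5.74 to 5.94 in wild type and 6.53 to 6.84 in mutants and was not tested.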
